A study of Mus musculus with 8 samples.

Results

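Polr1b, Polr2a, Tbp, Sf3a3, Eef1g, Eif2b4, Abcf1 and Rpl19 are 8 of the 20 reference genes of a mouse immune panel, and their products carry out the steps from gene to protein. They were taken by gene symbol from a table of 770 genes, and all 8 were found in it. The measurements are counts of single molecules: in the NanoString nCounter assay, barcoded probes bind chosen transcripts in total RNA and are counted without amplification. The libraries came from mouse lymph nodes, which the series title names as inguinal. The titles name 4 of them as tumor-bearing, which by the submitters' design text means nodes that Eµ-myc lymphoma cells had reached through lymphatic vessels, and the other 4 as tumor-free. Eµ-myc lymphoma is a B cell tumor in which an immunoglobulin enhancer drives a Myc transgene in B lineage cells. The strain, age and sex of the mice, the time after the lymphoma cells were given, and whether each numbered node came from its own mouse are not stated in the labels. The p-values below thus measure the spread between these libraries, which may be technical.

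Growing cells make more ribosomes, spliced messages and proteins, and the genes below serve that flow. RNA polymerase I makes the ribosomal RNA precursor, RNA polymerase II makes messenger RNA, the spliceosome removes introns, and initiation and elongation factors bring the ribosome and the amino acids together. Genes of this kind serve as reference genes in expression panels because most cells use them, but Myc is also known to raise ribosome production and RNA polymerase I activity.

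Each library held between 659771 and 819257 counts, recovered as whole counts from the deposited values, and no member rested on fewer than 225 of them. The deposited values are counts scaled by 1 factor per library (from 0.822 to 1.29), and every value given for a gene below is such a normalized count unless a log2 scale is named. All 9 T cell and all 10 B cell markers of the lists used here were counted in every library, and none was listed at 0. Myc itself ran against the labels. It was at 3147, 2996, 3281 and 3090.1 in the libraries labelled tumor-bearing (replicates 1 to 4), against 29389, 31449, 9249.5 and 33147 in those labelled tumor-free. The groups are therefore called by their labels, and each direction below would turn if the labels were exchanged. Replicate 3 labelled tumor-free, the lowest of its group in Myc, was also the lowest of its group in 6 of the 8 genes described here.

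The promoters of 7 of the 8 genes, all but Eef1g, were found in RefSeq's table for GRCm38.p6, as 8 windows, since Rpl19 has a pair of start sites. Each window below runs from 250 bases before the annotated start to 30 after it, 5′ to 3′ on the gene's strand. Those of Polr1b and Polr2a are shown because the log2 ratio of these polymerase genes shifted most between the groups of all pairs described below, and those of Abcf1 and Rpl19 because they hold CACGTG, the E-box that Myc and other factors of its family can bind, in capitals.
Polr1b (chr2:129100746-129101025, plus strand): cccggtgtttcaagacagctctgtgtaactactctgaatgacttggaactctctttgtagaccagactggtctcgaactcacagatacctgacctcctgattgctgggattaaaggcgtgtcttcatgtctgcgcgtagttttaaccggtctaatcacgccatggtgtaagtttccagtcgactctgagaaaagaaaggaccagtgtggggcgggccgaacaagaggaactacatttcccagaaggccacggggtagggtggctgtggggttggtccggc
Polr2a (chr11:69758604-69758883, minus strand): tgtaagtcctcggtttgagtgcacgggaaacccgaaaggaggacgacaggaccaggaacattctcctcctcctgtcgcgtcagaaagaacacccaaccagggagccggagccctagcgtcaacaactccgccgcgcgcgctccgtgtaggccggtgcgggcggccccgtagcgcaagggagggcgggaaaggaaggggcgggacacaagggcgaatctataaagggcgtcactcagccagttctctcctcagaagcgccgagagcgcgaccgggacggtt
Abcf1 (chr17:35969721-35970000, minus strand): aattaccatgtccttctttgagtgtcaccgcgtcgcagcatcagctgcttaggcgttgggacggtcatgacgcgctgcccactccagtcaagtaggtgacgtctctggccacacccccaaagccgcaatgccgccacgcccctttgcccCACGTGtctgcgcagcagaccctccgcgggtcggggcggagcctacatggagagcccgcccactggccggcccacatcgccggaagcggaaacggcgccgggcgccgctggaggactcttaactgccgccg
Rpl19, upstream start (chr11:98026460-98026739, plus strand): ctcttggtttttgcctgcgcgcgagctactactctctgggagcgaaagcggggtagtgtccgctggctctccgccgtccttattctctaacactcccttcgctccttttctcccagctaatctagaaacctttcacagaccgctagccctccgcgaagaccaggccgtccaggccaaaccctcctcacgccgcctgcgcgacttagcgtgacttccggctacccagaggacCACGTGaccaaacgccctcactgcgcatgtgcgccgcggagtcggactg
The E-box began 101 bases before the start of Abcf1 and 19 bases before the upstream start of Rpl19. The second Rpl19 window holds the same letters, 233 bases before its start. CACGTG reads the same on both strands and stood in 6.79% of all 32851 windows of that length. The windows of Polr1b, Polr2a, Eif2b4, Sf3a3 and Tbp hold no CACGTG. Searched on both strands, the TATA box letters TATAAA stood in 1 of the 8 windows, that of Polr2a, and in 13.1% of all windows. The letters CCAAT stood in 1 window, that of Eif2b4 (36.1% of all windows), and the GC box letters GGGCGG in 6 of 8, those of Abcf1, Eif2b4, Polr1b, Polr2a, Tbp and the downstream start of Rpl19 (34.7% of all windows).

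Of the 8 genes, 4 fell in the libraries labelled tumor-bearing and 0 rose (limma, Benjamini-Hochberg adjusted p under 0.05 over the 609 genes that passed a filter on low values). All 8 passed that filter. Over all 609 genes, 10.7% were called lower and 27.6% higher. At an unadjusted p under 0.05, limma had 5 of the 8 lower and 1 higher, but the share of all genes was not counted there. At an adjusted p under 0.1 limma also had 5 lower and 1 higher, against 15.6% and 39.6% of all genes. On the recovered counts, at an adjusted p under 0.05, edgeR called 6 lower and 0 higher (23.5% and 19.2% of all genes), and DESeq2 called 7 lower and 0 higher (29.7% and 25.8% of all genes). The 4 called genes were Polr1b, Eef1g, Sf3a3 and Abcf1, which together span ribosomal RNA synthesis, splicing, translation elongation and initiation. Their libraries labelled tumor-bearing all lay below all those labelled tumor-free, as in 10.2% of all genes tested, and 0 of the 8 genes had the groups apart the other way round, as 21.7% of all genes did. The median log2 difference over the 8 genes was -0.645, against 0.361 over all 609.

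**Figure D1:**
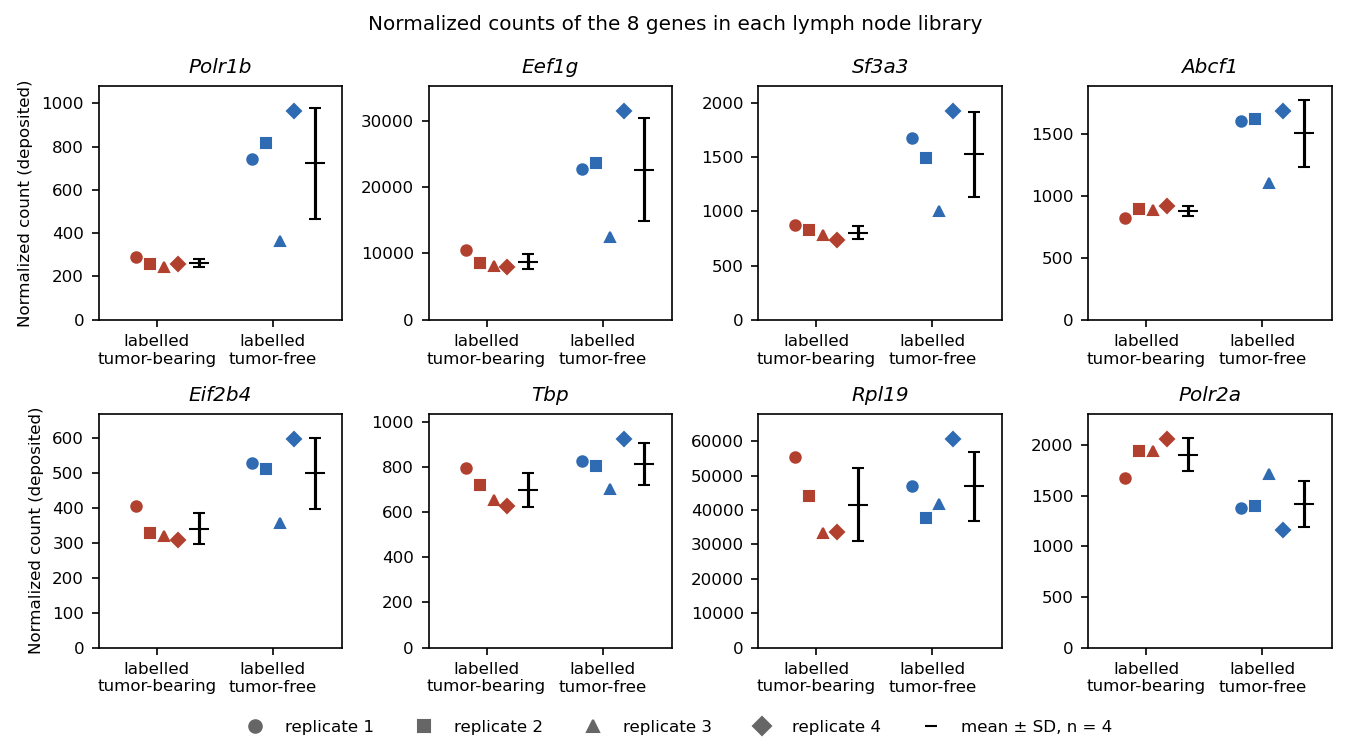
Normalized counts (linear vertical axes from 0) of each gene in each library, with 4 libraries labelled tumor-bearing on the left of each panel and 4 labelled tumor-free on the right; marker shapes give the replicate number and black bars the mean ± SD. In Polr1b, Eef1g, Sf3a3 and Abcf1 the groups do not overlap, and replicate 3 is the lowest library labelled tumor-free in 6 of the 8 genes.

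Among the genes of transcription, Polr1b and Polr2a stood at opposite ends of the set. Polr1b encodes the second-largest subunit of RNA polymerase I, and had 290.9, 259, 245 and 259 counts in replicates 1 to 4 labelled tumor-bearing, against 745, 815, 365 and 964 in those labelled tumor-free. The libraries labelled tumor-bearing lay close together, and those labelled tumor-free spread over 2.64-fold, with replicate 3 far below the others but still above every library labelled tumor-bearing. Means were 263 ± 19.6 in libraries labelled tumor-bearing and 722 ± 255 in those labelled tumor-free (SD, n = 4 each), a log2 difference of -1.37 (95% interval -2.03 to -0.71, limma adjusted p = 0.0195), which only 31 of the 609 genes exceeded in the same direction.

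Polr2a encodes the largest subunit of RNA polymerase II, the catalytic core that transcribes messenger RNA. It had 1678, 1944, 1937 and 2061 counts in the libraries labelled tumor-bearing, against 1374, 1399, 1714 and 1164 in those labelled tumor-free. The groups touched, since replicate 3 labelled tumor-free lay above replicate 1 labelled tumor-bearing. Means were 1905 ± 161 in libraries labelled tumor-bearing and 1413 ± 227 in those labelled tumor-free (SD, n = 4 each), with a log2 difference of 0.44 (95% interval 0.046 to 0.84, limma adjusted p = 0.0693), so Polr2a was not called. It was called in 1 of the 8 fits without 1 library, that without replicate 3 labelled tumor-free (0.54, limma adjusted p = 0.00869). In that fit 43.3% of all genes were called higher. Over the 8 fits the limma adjusted p of Polr2a reached 0.174.

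Tbp encodes the TATA-binding protein, which helps all the nuclear RNA polymerases to start. It had 794, 721, 652 and 626 counts in the libraries labelled tumor-bearing, against 824, 803, 700.3 and 924 in those labelled tumor-free. The groups overlapped, and of the 8 genes Tbp varied least over all libraries, by 1.48-fold from the lowest to the highest. Its log2 difference was -0.22 (95% interval -0.61 to 0.17, limma adjusted p = 0.32).

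Sf3a3, the splicing gene of the set, encodes a subunit of a factor that the spliceosome needs to recognise the branch site. It had 870.0, 826, 779 and 731 counts in the libraries labelled tumor-bearing, against 1675, 1491, 1002 and 1923 in those labelled tumor-free. Each value labelled tumor-bearing was below 1002, the lowest of the other group, again its replicate 3. The log2 difference was -0.89 (95% interval -1.38 to -0.40, limma adjusted p = 0.025).

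In translation, Eef1g changed most. It encodes the gamma subunit of the elongation factor 1 complex, which recharges the factor that delivers aminoacyl-tRNA to the ribosome. Its counts were 10472, 8483, 8064 and 7989 in the libraries labelled tumor-bearing, against 22699, 23648, 12504 and 31438 in those labelled tumor-free. No value of one group entered the range of the other, and replicates 3 and 4 labelled tumor-free differed by 2.51-fold. Means were 8752 ± 1167 in libraries labelled tumor-bearing and 22572 ± 7771 in those labelled tumor-free (SD, n = 4 each), a log2 difference of -1.30 (95% interval -1.92 to -0.68, limma adjusted p = 0.0195).

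Abcf1, an ATP-binding cassette protein with no membrane part that binds ribosomes and an initiation factor, had 824, 896, 885 and 917 counts in the libraries labelled tumor-bearing, against 1604, 1625, 1106 and 1686 in those labelled tumor-free. In normalized counts it had the smallest spread of the 8 genes within the group labelled tumor-bearing. The coefficient of variation was 4.57%, against 17.8% in the other group. That rank rests on the deposited factors. Recovered counts of Abcf1 were 637 and 955 in replicates 1 and 3 labelled tumor-bearing, libraries of 785649 and 789625 counts. The log2 difference of Abcf1 was -0.75 (95% interval -1.17 to -0.34, limma adjusted p = 0.0249). Eif2b4 encodes a subunit of eIF2B, the exchange factor that resets the initiation factor carrying the first tRNA and that the integrated stress response restrains. It had 405, 327, 318 and 308 counts in the libraries labelled tumor-bearing, against 527, 511, 356 and 596.5 in those labelled tumor-free. Here replicate 3 labelled tumor-free fell inside the other group's range, and the log2 difference of -0.53 (95% interval -1.02 to -0.045) had a limma adjusted p = 0.0743. Eif2b4 was called in 1 of the 8 fits without 1 library, that without this replicate (-0.69, limma adjusted p = 0.00671). In that fit 15.3% of all genes were called lower. Over the 8 fits the limma adjusted p of Eif2b4 reached 0.171.

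Rpl19, which encodes a protein of the large ribosomal subunit, had 55444, 44101, 33291 and 33502 counts in the libraries labelled tumor-bearing, against 47017, 37769.8, 41899 and 60731 in those labelled tumor-free. The groups overlapped almost entirely. In normalized counts Rpl19 was the single gene of the 8 that varied more within the group labelled tumor-bearing (coefficient of variation 25.3%, against 21.3% in the group labelled tumor-free). That order rests on the deposited factors and may turn under another scaling. Its log2 difference was -0.18 (95% interval -0.75 to 0.38, limma adjusted p = 0.566). The interval leaves room for differences of either sign, so Rpl19 was not shown to be even. The probe sequences were not used here, and whether the Rpl19 and Eef1g probes also count transcripts of near-identical gene copies is not known.

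Rpl19 and Eef1g gave most of the counts of the set. The 8 genes together made up 6.31% to 6.97% of a library's recovered counts where it was labelled tumor-bearing and 7.26% to 13.8% where it was labelled tumor-free, a share that does not depend on the deposited scaling. Replicate 3 had the lowest share and replicate 4 the highest among the libraries labelled tumor-free. In normalized counts, which do depend on that scaling, replicate 4 labelled tumor-free was the highest of its group in 7 of the 8 genes, all but Polr2a. Replicate 1 was the highest labelled tumor-bearing in 6 of 8, but it also had the largest factor of all libraries (1.29), so its rank rests on the scaling. For bulk nodes, fewer cells that use a gene and less RNA of it per cell cannot be told apart.

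The calls rested on few libraries. Without replicate 2, 3 or 4 labelled tumor-bearing, or replicate 1 or 2 labelled tumor-free, limma called 0 of the 8 genes. In each of these fits 4 were lower at an unadjusted p under 0.05, a count not taken over all genes. Calls were also rare over the panel there, with 0% to 3.28% of all genes lower and 0% to 0.821% higher. Adjusted p-values over all 8 fits without 1 library ran from 0.000108 to 0.0743 for Polr1b and from 0.000178 to 0.0735 for Eef1g, and the log2 difference of each stayed at -1.12 or below. Without replicate 1 labelled tumor-bearing 3 of the 8 were called lower (8.05% of all genes), and without replicate 4 labelled tumor-free 4 (8.54%). Without replicate 3 labelled tumor-free 5 were lower and 1 higher, against 15.3% and 43.3% of all genes. Leaving out replicate 1 labelled tumor-bearing and replicate 3 labelled tumor-free together, a choice made after seeing the data, gave 5 lower and 1 higher, against 18.7% and 39.1% of all genes.

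Another factor per library moves the difference of every gene by about the same amount, and with it the side of 0 on which a gene lies. Quantile normalization is not such a factor, and with it Polr1b had -1.67 and Eef1g -1.09. Scaled on the 12 other panel reference genes, 2 of the 8 were lower (Polr1b and Eef1g) and 1 higher (Polr2a, 0.95, limma adjusted p = 0.0171), while 6.73% of all genes were lower and 58.1% higher and the median over all 609 genes moved to 0.869. Polr1b had a log2 difference from -1.91 to -0.82 and Eef1g from -1.85 to -0.76 over all 26 alternatives, never turning sign. Tbp and Rpl19 turned to 0.29 and 0.33 with the 12 other reference genes, Eif2b4 to 0.01 with all 20, and Polr2a turned to -0.10 when libraries were scaled to the same median. The median of the 8 genes minus that of all genes was -1.01 in the deposited values, and between -1.08 and -1.01 under the 5 other scalings, edgeR and DESeq2.

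**Figure D2:**
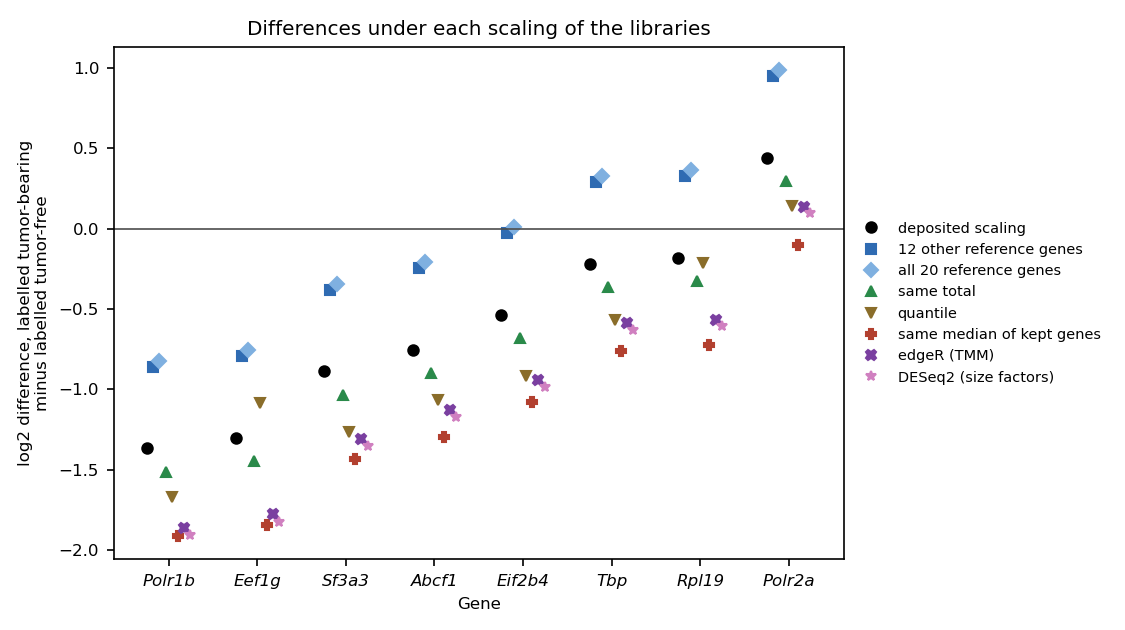
Difference of each gene on the log2 scale (vertical axis, labelled tumor-bearing minus labelled tumor-free) under the deposited scaling, 5 other scalings in limma, edgeR and DESeq2. Polr1b and Eef1g stay below 0 under all of them, whereas Tbp, Rpl19, Eif2b4 and Polr2a lie on either side of 0 depending on the scaling.

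A ratio of 2 genes within 1 library does not depend on that library's scaling, so the 28 pairs of the 8 genes were compared by their log2 ratio. The size of a ratio between 2 probes has no meaning of its own, and only its change between libraries is read. In 16 of the 28 pairs (57.1%) the groups did not overlap, against 36.8% of all 185136 pairs of kept genes. Among the 12 other panel reference genes they did not overlap in 28.8% of the 66 pairs. Among all 20 panel reference genes it was 40.5% of the 190 pairs, which include these 28. Pairs that share a gene are not independent, and no test was made.

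The largest shift was between both polymerase genes. The log2 ratio of Polr1b to Polr2a was -2.52, -2.90, -2.98 and -2.99 in the libraries labelled tumor-bearing, against -0.88, -0.78, -2.23 and -0.27 in those labelled tumor-free. The groups did not overlap, and replicate 3 labelled tumor-free lay 0.30 above the nearest library labelled tumor-bearing. The mean ratio differed by -1.81, that is 3.50-fold lower in the libraries labelled tumor-bearing, and the ratio of Eef1g to Polr2a likewise by -1.74.

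Polr1b and Eef1g, in contrast, moved together. Their log2 ratio stayed between -5.17 and -4.94 in the libraries labelled tumor-bearing and between -5.09 and -4.86 in those labelled tumor-free, although each gene alone ranged over 3.94-fold. Its SD over the 8 libraries was 0.098, the smallest of the 28 pairs, against a median of 0.449 over the 28 and 0.703 over all pairs of kept genes. Abcf1 with Sf3a3 (0.167) and Rpl19 with Tbp (0.19) were the next most even pairs, with differences in the mean ratio of 0.13 and 0.04 and overlapping groups.

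The pair of translation genes Eef1g and Rpl19 parted. Their log2 ratio was -2.40, -2.38, -2.05 and -2.07 in the libraries labelled tumor-bearing, against -1.05, -0.68, -1.74 and -0.95 in those labelled tumor-free. No library of one group entered the other's range, and the mean ratio differed by -1.12, or 2.17-fold. Sf3a3 was apart from 6 of the other 7 genes in its ratios, all but Abcf1, and Abcf1 from 2, Polr2a and Tbp.

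**Figure D3:**
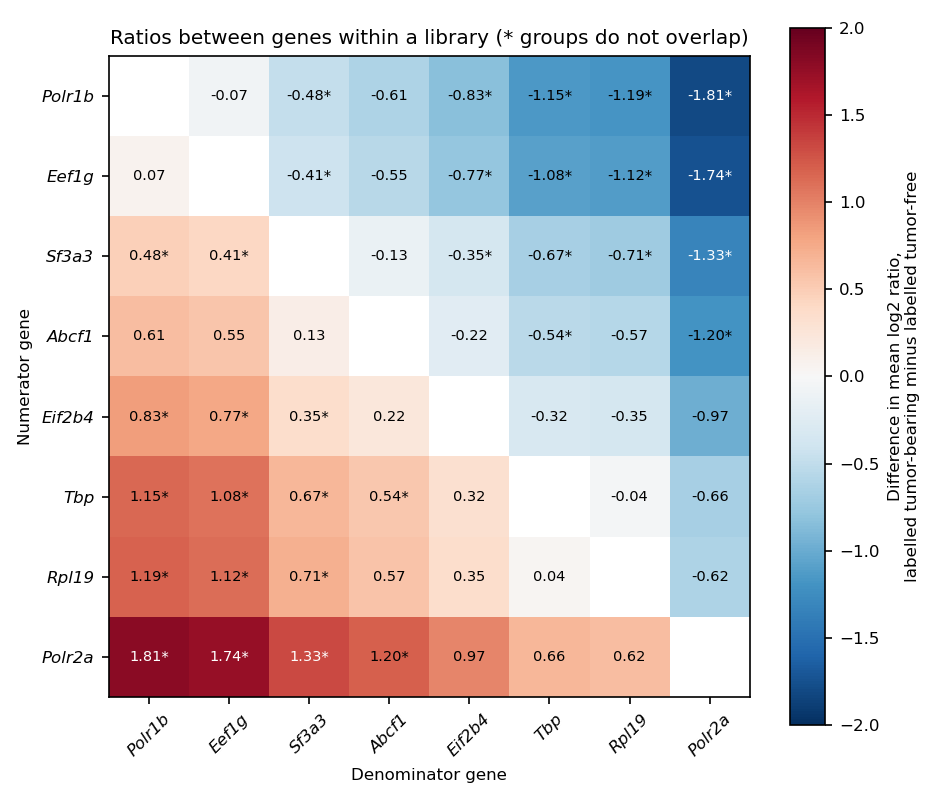
Difference in mean log2 ratio, labelled tumor-bearing minus labelled tumor-free, for each gene of a row over each gene of a column; colour and number give the difference, and a star marks pairs whose groups do not overlap (16 of 28). The ratios of Polr1b and Eef1g to Polr2a shifted most (-1.81 and -1.74), and that of Polr1b to Eef1g least among the pairs with Polr1b (-0.07).

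The 12 other reference genes of the panel, mostly of metabolism and the cytoskeleton, leaned the same way. Of these, 4 were called lower (Gusb, Hprt, Tubb5 and Ppia) and 0 higher by limma, against 10.7% and 27.6% of all genes. The median log2 difference of the 12 was -0.442, against 0.361 over all 609 genes. Gusb, a lysosomal glucuronidase, had a log2 difference of -1.18 (limma adjusted p = 0.0253) and Hprt, a purine salvage enzyme, of -0.91 (limma adjusted p = 0.0265). Tubb5, a beta tubulin, and Ppia, cyclophilin A, had differences of -0.84 and -0.79. The uncalled genes had differences of -0.56 for Oaz1, -0.48 for Alas1, -0.40 for Hdac3, -0.35 for G6pdx, -0.27 for Sdha, -0.25 for Nubp1, -0.19 for Edc3 and 0.13 for Sap130. Among the 20, Polr2a and Sap130, a subunit of a histone deacetylase complex, were the genes with a log2 difference above 0.

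**Figure D4:**
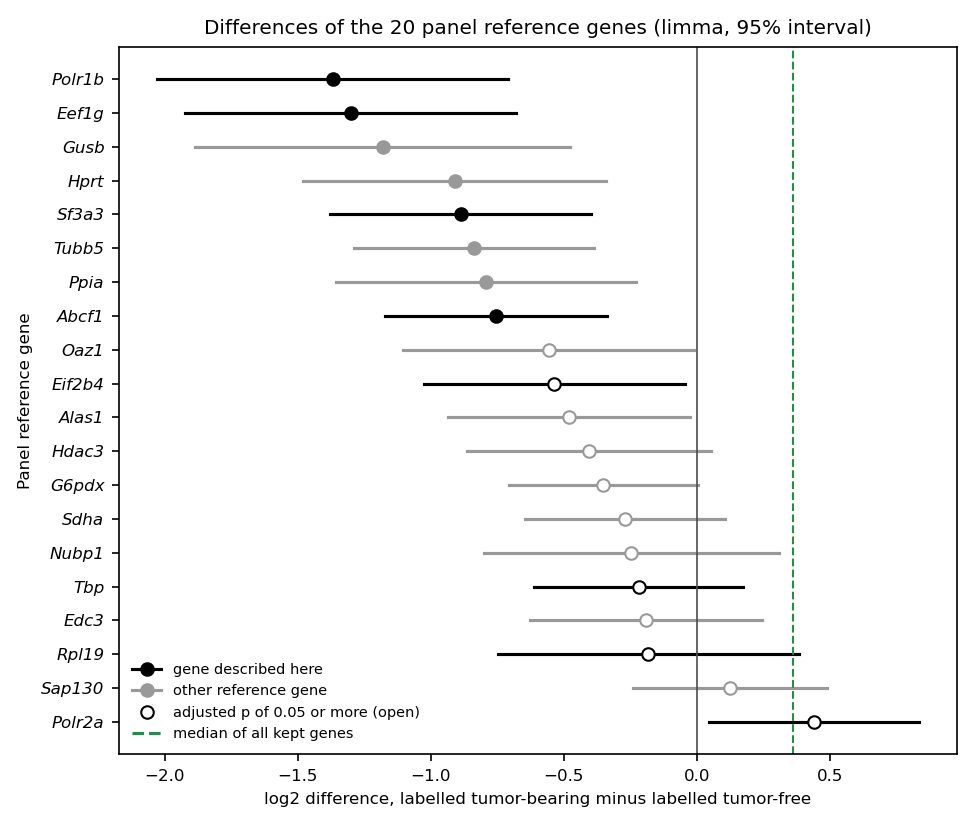
Difference on the log2 scale (horizontal axis) with its 95% interval for the 20 panel reference genes, the genes described here in black and the 12 others in grey, filled where the adjusted p was under 0.05. Polr1b lies at -1.37 and Polr2a at 0.44, the ends of the range, and the dashed line marks the median of all kept genes at 0.361.

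No choice among the 20 reference genes made the deposited libraries exactly even. The geometric mean of the 8 genes was 1686, 1547, 1437 and 1439.5 in the libraries labelled tumor-bearing, against 2444, 2375, 1756 and 2805 in those labelled tumor-free. All 1048575 subsets of the 20 genes were searched, and 0 had a geometric mean with an SD under 0.001 on the log2 scale over the 8 libraries. The most even subset joined Polr2a and Tbp with Sap130 and Sdha (SD 0.0238, from 974 to 1019). Within the 8 genes alone the most even subset was Polr2a with Eif2b4 (SD 0.0492), a pair in which the mean of one was higher and that of the other lower in the libraries labelled tumor-bearing.

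Library by library, the genes were set beside Myc. Replicate 3 labelled tumor-free, whose Myc of 9249.5 lay between the groups, differed from the mean of its group's other libraries by -1.20 in Polr1b on the log2 scale, -1.04 in Eef1g, -0.28 in Tbp and 0.39 in Polr2a. Of the libraries labelled tumor-free it was also the nearest to the other group in T cell markers. The summed normalized counts of 9 T cell markers, all called higher, ran from 33460 to 40062 in the libraries labelled tumor-bearing, against 12288, 9132, 29934 and 5133 in replicates 1 to 4 labelled tumor-free.

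The sum of 10 B cell markers ran from 15534 to 27633 in the libraries labelled tumor-bearing and from 18199 to 22386 in those labelled tumor-free, with 2 called higher and 2 lower. The sum of 7 macrophage markers ran from 596 to 941 in the libraries labelled tumor-bearing and from 1381 to 1572 in those labelled tumor-free, with 5 of the 6 kept called lower and Cd163 below the filter. For 4 of 5 plasma cell markers measured (all but Sdc1) it ran from 1406 to 2458 in the libraries labelled tumor-bearing and from 1925 to 4327 in those labelled tumor-free, with 1 of the 3 kept called lower. The sum of 5 vessel markers ran from 2023 to 2780 in the libraries labelled tumor-bearing and from 1173 to 1971 in those labelled tumor-free, and that of 3 of 4 lymph node stroma markers (all but Pdpn) from 646 to 976 in the libraries labelled tumor-bearing and from 334 to 612 in those labelled tumor-free, with 1 gene of each list called higher. The sum of 2 of 3 epithelial markers (all but Krt18) ran from 92 to 293 in the libraries labelled tumor-bearing and from 71 to 94 in those labelled tumor-free, with 1 called higher. The sums of the T cell, macrophage, vessel and stroma lists did not overlap between the groups, while those of the B cell, plasma cell and epithelial lists did. Of all single genes tested, 10.2% had groups apart with lower values and 21.7% with higher values. The part of these cell types, and of Myc, in the differences of the 8 genes was not tested.

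**Figure D5:**
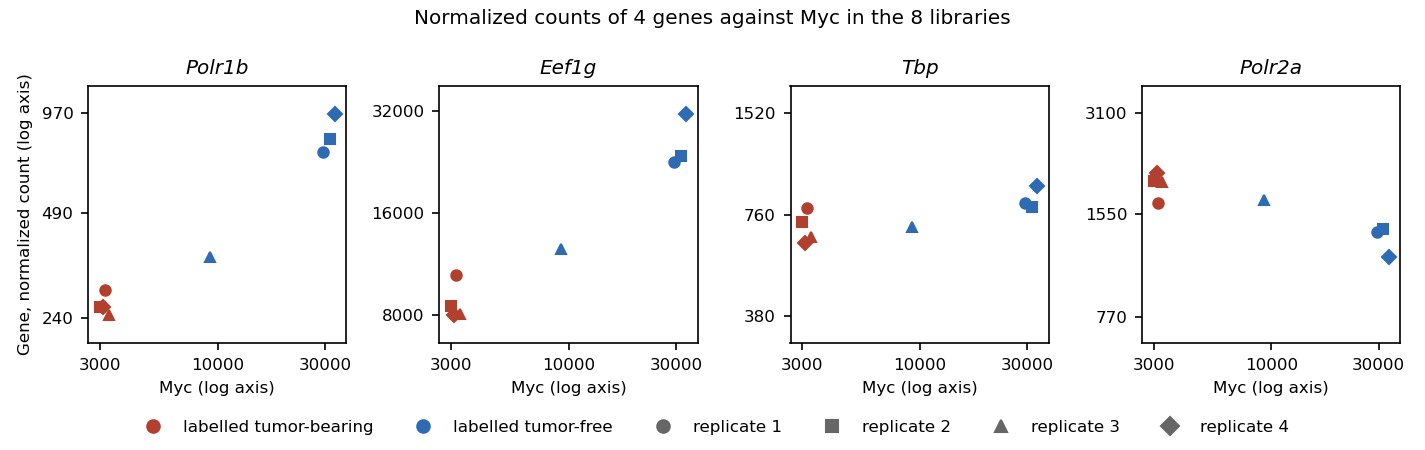
Normalized counts of Polr1b, Eef1g, Tbp and Polr2a (vertical axes, log scale, each spanning the same fold range) against Myc (horizontal axes, log scale) in the 8 libraries; colours give the label and marker shapes the replicate number. Replicate 3 labelled tumor-free, with 9249.5 counts of Myc, lies between the groups in Polr1b (365) and Eef1g (12504).

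Other genes of gene expression and growth were few on the panel. Of a list of 39, 11 were measured and kept, with 4 called lower, 1 higher and 6 not called (limma). Over all 609 genes, 10.7% were called lower and 27.6% higher. The median log2 difference of the 11 was -0.44, against 0.361 over all 609. Those called lower were C1qbp, a mitochondrial protein needed for mitochondrial translation, the cell division gene Birc5, the transferrin receptor Tfrc and the cytokine Mif, with differences of -2.27, -3.34, -2.24 and -2.28. Txnip, an inhibitor of thioredoxin and of glucose uptake, was called higher, by 0.62. Among those not called, Rps6, a protein of the small ribosomal subunit, had a difference of -0.36 (adjusted p = 0.238), and Ewsr1, an RNA-binding protein, of -0.45 (adjusted p = 0.0871). The coactivators Ep300 and Crebbp, which acetylate histones at genes that RNA polymerase II transcribes, had 0.42 and 0.54 (adjusted p = 0.0861 and 0.0846), and the transcription factor Creb1 had 0.27 (adjusted p = 0.246).

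For each of the 8 genes, likeness to the rest of the panel was measured as the SD of the log2 ratio over the 8 libraries, a smaller SD being more alike. Outside the reference genes, Polr1b was most like Anp32b, a nuclear histone chaperone (SD 0.079), and Irf4, a transcription factor of activated B cells and plasma cells (0.082). The proteasome gene Psmd7 (0.096) was among the 2 nearest to Eef1g. Anp32b, Irf4 and Psmd7 were called lower, with log2 differences of -1.42, -1.35 and -1.47 (limma adjusted p from 0.0173 to 0.0233).

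Polr2a was most like Runx3, a transcription factor of T cells and other lymphocytes (0.091), and Ep300 (0.094), neither of them called. Rpl19 was most like Cd79b, a chain of the B cell receptor (0.0496), and the autophagy gene Atg5 (0.112). Sf3a3 was most like Gpi1, a glycolysis enzyme (0.089), and Nup107, a nuclear pore protein (0.117), both called lower, and Ythdf2, a reader of methylated RNA (0.153), was among the 2 nearest to Abcf1. Eif2b4 was most like the kinase Map2k2 (0.079) and Ythdf2 (0.099), and the transcription factor Atf2 (0.071) was among the 2 nearest to Tbp. When likeness was taken within groups only, 10 of the 16 places, 2 for each gene, were held by the same genes.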

How the data were processed

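Total RNA of 8 lymph nodes, extracted on spin columns and treated with DNase, was counted on a NanoString panel, per the labels' protocols. As deposited by the authors, each value is a count signal multiplied by 1 factor per library. How that factor was set, and whether background was subtracted, is not stated in the labels. A step search returned whole counts for 100% of values (within 0.1 of a step), which served edgeR 4.0.16 and DESeq2 1.42.0 as alternatives.

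Genes with a value of 20 or more in at least 4 libraries were kept (609 of 770), and log2(value + 1) was fitted with limma 3.58.1 in R 4.3.3 (eBayes with trend, two-sided, Benjamini-Hochberg over the kept genes, threshold 0.05) with the group as the single term. Fold changes on this scale understate low genes. Fits and searches were tested on simulated data. Libraries of 1 group differed beyond sampling noise, with chi-square values of 3.26 to 287 per degree of freedom. The rule for named genes took the 8 members, Myc, the 12 other panel reference genes, the 2 nearest kept genes of each member and the kept genes of a list of 39, of which a few are not reported here. The members and lists were chosen with earlier results of these data known. Same-numbered libraries were not treated as pairs.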

Additional observations from a re-analysis of the deposited data

Results flagged for a closer look

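A library far from the others of its group was looked for in the 8 genes and their 28 ratios, in 72 groups of 4 libraries, of which chance alone would pick about 1 in 20. The gap of the farthest library to its nearest neighbour, as a part of the group's whole range, passed Dixon's critical value in 3. It was 0.881 for Abcf1 among the libraries labelled tumor-free, where replicate 3 was low (1106, the others from 1604 to 1686). It was 0.941 for the log2 ratio of Eif2b4 to Tbp in the same group, where replicate 3 was again low (-0.98, against -0.63 to -0.65), and 0.878 for the ratio of Eef1g to Eif2b4 among the libraries labelled tumor-bearing, a group whose whole range was 4.66 to 4.69.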

How the results depend on the processing

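The number of the 8 genes called lower was 4, with 10.7% of all genes. It became 2 on the 12 other or all 20 reference genes (6.73% and 6.24% of all genes) and 7 with DESeq2 (29.7%). At an adjusted p threshold of 0.01 it became 0 (0.821%), and without 1 library it ran from 0 to 5 (0% to 15.3%). The number called higher (0, with 27.6% of all genes) became 1 on either reference-gene scaling (58.1% and 59.6%), with array weights (48.6%), at a threshold of 0.1 (39.6%) and without both replicate 1 labelled tumor-bearing and replicate 3 labelled tumor-free (39.1%), and ran from 0 to 1 without 1 library (0% to 43.3%). The median log2 difference of the 8 genes (-0.645) became -0.137 on the 12 other reference genes, -0.0999 on all 20, -1.19 with the same median, -0.79 with the same total, -0.992 after quantile normalization, -1.04 with edgeR, -1.08 with DESeq2 and -0.819 without those 2 libraries, and ran from -0.792 to -0.566 without 1 library. Signs turned for Rpl19 (0.326 and 0.363) and Tbp (0.29 and 0.327) on the 12 other and all 20 reference genes, for Eif2b4 (0.01) on all 20, and for Polr2a (-0.104) with the same median. Apart from quantile normalization, a scaling moves all genes of a library alike, and the cause of the other changes was not tested. The groups were apart in 16 to 23 of the 28 pairs without 1 library. Smaller groups part more easily, and the share over all pairs of kept genes was not counted in those fits. With the replicate number as a block, 4 of the 8 genes were lower and 0 higher, against 10.7% and 28.4% of all genes. No call on the 8 genes changed. Whether the numbers pair the libraries is not stated in the labels. Deviations of same-numbered libraries from their group means correlated at 0.548, 0.0283, 0.0137 and -0.0371, and so few values cannot settle it. Counts of 225 or more per gene and library left counting error small, so 4 libraries per group set the precision.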
